A study of Homo sapiens with 12 samples.

Results

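The 47 genes described here encode regulators and markers of the mesenchymal cell state, proteins and enzymes of the extracellular matrix, integrins, and the TGF-beta signalling pathway. They were taken by symbol from the gene-level array table, with the transcript cluster of highest mean where a gene had several. For 44 the cluster carries that symbol alone, among 22411 genes on the array with such a cluster, while the clusters of RUNX1, COL3A1 and TIMP2 also carry LOC100506403, MIR3606 and CEP295NL. They were measured in SH-SY5Y, a human neuroblastoma cell line, as 3 samples that received an siRNA against MATR3 and 3 that received a negative control siRNA. MATR3 (Matrin3) is a nuclear matrix protein that binds RNA and DNA. Cells of both groups were grown with 15% serum and electroporated with 1 pulse of 1100 V for 50 ms, and total RNA was taken 48 h later. The model is 1 cell line. Whether the replicates were separate cultures is not labelled, so p-values measure the spread between these samples alone, and that spread may be technical.

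Neuroblastoma cells can occupy an adrenergic state, held by noradrenergic transcription factors, or a mesenchymal state that resembles neural crest and stromal cells. The mesenchymal state is known for vimentin, fibronectin and collagens, and for regulators such as PRRX1 and the Hippo pathway coactivators YAP1 and WWTR1. TGF-beta family ligands bind paired receptor kinases that phosphorylate SMAD proteins, which enter the nucleus and, in many cells, raise matrix and integrin genes. Integrins are pairs of an alpha and a beta subunit that bind matrix proteins such as fibronectin.

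The 2 replicate 1 arrays, one of each group, lay apart from the remaining 4. Across clusters with a mean no lower than the median their signals correlated at r = 0.9939 between the 2, and at 0.9773 to 0.9838 with the rest. Replicate 1 is called the first array set here and replicates 2 and 3 the second, and this split was found in the data. The deposited values are log2 signals, 23 background probe sets had medians of 3.49 to 3.81 per array, and the highest of these probe sets averaged 6.93. The cluster annotated to MATR3 and SNHG4 measured 11.21, 10.53 and 10.52 (log2) after MATR3 siRNA, against 12.25, 11.75 and 11.68 after control siRNA, which leaves 45.4% of the control signal. The groups did not overlap. This cluster was tested among 33782 clusters, with or without a gene symbol, that had a mean no lower than the median. There limma gave it adjusted p = 0.0547 with the array set and adjusted p = 1 without it. In the same fit with the array set, the smallest adjusted p among the genes described here was 0.106. Adjusted p-values of genes given below come from tests of fewer clusters, so they cannot be compared with 0.0547. Of 6 measured noradrenergic markers, PHOX2A, HAND2, GATA3, ISL1 and DBH lay above the highest background probe set in both groups, and TH, the tyrosine hydroxylase gene, was below the filter. None of 3 Schwann and glial, 5 epithelial, 3 endothelial or 4 leukocyte markers lay above it in both groups, while 2 of 8 fibroblast markers did, PDGFRA and PDGFRB. The part of other cell types in the results was not tested.

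The question was whether these genes differed after MATR3 siRNA. Of the 47, 35 had a cluster of their own symbol with a mean at or above the median of all clusters, a log2 signal of 4.94, and were tested among 15209 such clusters. With limma and no block, 0 of the 35 members passed at a Benjamini-Hochberg adjusted p under 0.05, and 1, LUM, had an unadjusted p under 0.05. Of all 15209 clusters 0 passed (0%) and 0.631% had an unadjusted p under 0.05. A limma model with the array set as block, called the array-set model here, passed 9 of the 35 members, against 3.48% of all clusters tested. VIM, FN1, LUM and ITGAV rose, against 2.08% of all clusters that rose, and ANXA2, MFAP4, TIMP3, ITGA4 and INHBA fell, against 1.41% that fell. The members were chosen with earlier results of these data known, so these counts are a description. "Rose" and "fell" refer to this model from here on. With the replicate number as block, 0 of the 35 members and 0.0526% of all clusters passed, and the smallest adjusted p of a member in limma was 0.054. Without any 1 of the 6 samples 0 members passed, with a smallest limma adjusted p of 0.0521 to 0.129. After quantile normalization or after median centring 2 members rose and 5 fell, since VIM and FN1 no longer passed. Of all clusters, 316 rose and 214 fell in the array-set model, 170 rose and 215 fell after quantile normalization, and 146 rose and 215 fell after median centring. Of the 47 members 25 lay under the highest background probe set in both groups, 14 of them tested. In bulk RNA, fewer cells of a type and less RNA per cell cannot be told apart. The mean log2 difference over the 35 ranged from -0.98 to 0.67 with a median of 0.01, against a median of 0.04 over all clusters tested, and the median size was 0.18 against 0.10. In 21 of the 35 all 3 pairs had the same sign, against 41.3% of all clusters.

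**Figure D1:**
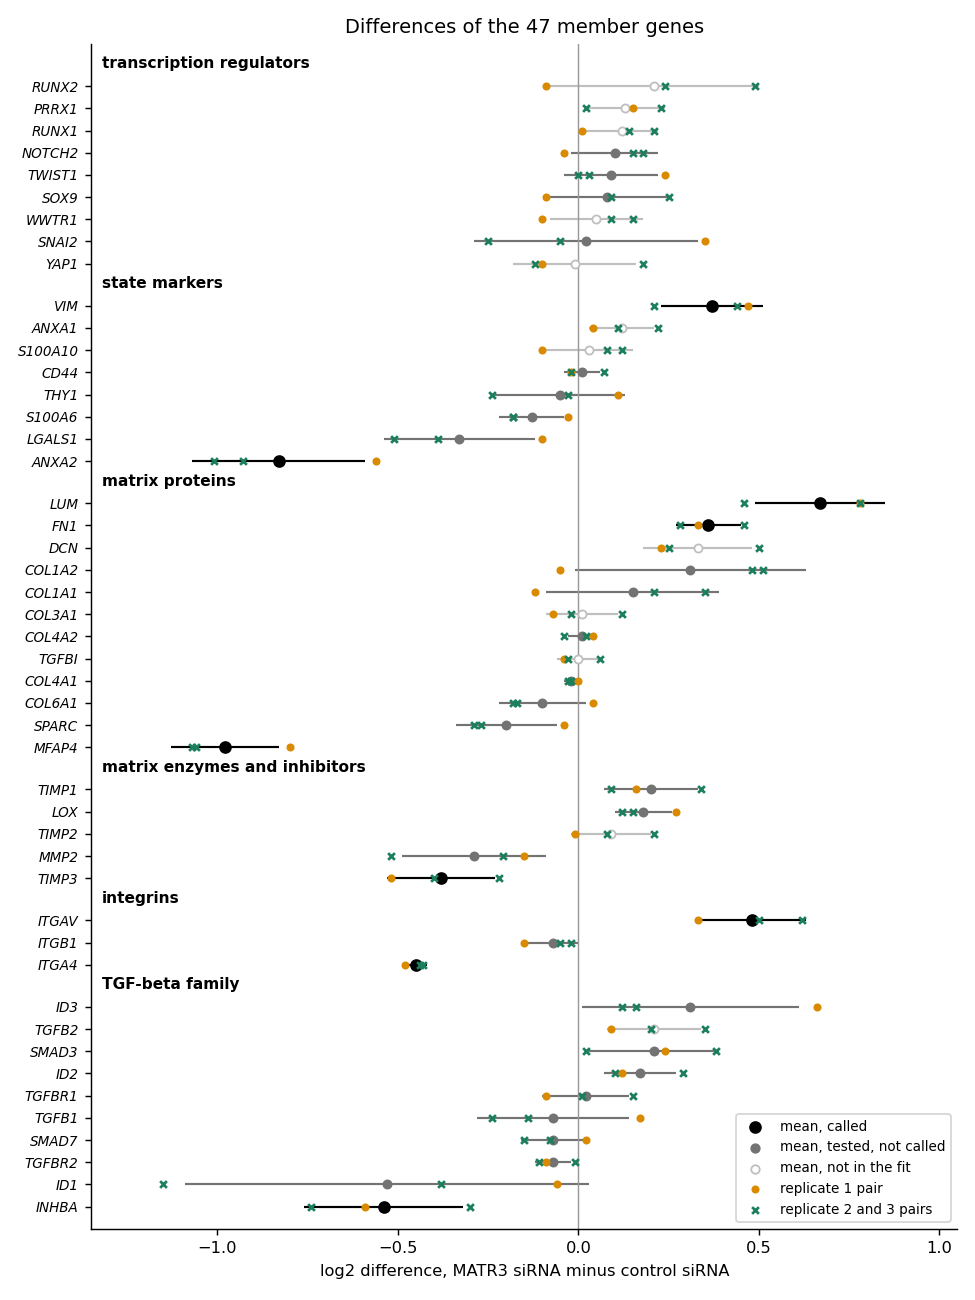
Mean log2 difference, MATR3 siRNA minus control siRNA, for the 47 genes by role (large points, with the SD of 3 pair differences as bars), with the replicate 1 pair (orange) and the replicate 2 and 3 pairs (green crosses). The 9 called genes (black) have all 3 pairs on 1 side of 0, with means from -0.98 for MFAP4 to 0.67 for LUM.

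Among the transcription regulators of the mesenchymal state, none was called. Of the 9, 4 were tested, and their mean log2 differences lay between 0.02 and 0.10. TWIST1, a basic helix-loop-helix factor that drives mesenchymal programmes, measured 12.30, 10.83 and 10.89 (log2) after MATR3 siRNA, against 12.06, 10.80 and 10.89 after control siRNA. NOTCH2, a Notch receptor, had 9.44, 8.85 and 8.76 after MATR3 siRNA, against 9.48, 8.67 and 8.61 after control siRNA. In both genes the groups overlapped and the first array set was higher than the second in each group. SNAI2, the Slug repressor of epithelial genes, differed by 0.02 ± 0.31 (log2, SD, n = 3 pairs), with 0.35 in the replicate 1 pair and -0.05 and -0.25 in the other pairs. SOX9, a factor of neural crest and cartilage, differed by 0.08 ± 0.17, at means under the highest background probe set in both groups.

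The other 5 regulators were at a lower signal and were not tested. PRRX1, a homeobox factor, YAP1 and WWTR1 (the TAZ coactivator) and the Runt factor RUNX2 were below the filter, with group means between 4.16 and 4.61. The cluster of RUNX1, another Runt factor, and LOC100506403 was below it too, at 4.78 after MATR3 siRNA and 4.66 after control siRNA. These defining regulators stayed under the highest background probe set in both groups. Of 8 measured mesenchymal neuroblastoma markers, VIM, FN1, SNAI2 and TWIST1 lay above that probe set in both groups. CD44, PRRX1, YAP1 and WWTR1 did not. With markers on both sides, the genes are named here by their list, and no mesenchymal state is assigned to the cells. At exon level 2 to 11 probe sets per gene of PRRX1, YAP1, WWTR1 and RUNX2 passed the same filter, of 25 to 56 on the array.

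Of the 8 state markers 6 were tested, 1 rose, 1 fell and 4 did not pass. VIM, the intermediate filament vimentin, rose, and ANXA2, a membrane-binding annexin that pairs with S100A10, fell. VIM measured 11.88, 11.14 and 11.27 (log2) after MATR3 siRNA, against 11.41, 10.93 and 10.83 after control siRNA. The MATR3 siRNA sample was higher in each pair, by 0.47, 0.21 and 0.44, though replicates 2 and 3 after MATR3 siRNA lay below replicate 1 after control siRNA, so the groups overlapped. The mean log2 difference was 0.37 (SE 0.067, limma adjusted p = 0.0471, array-set model), or 130% of the control signal. ANXA2 measured 10.97, 9.76 and 9.77 (log2) after MATR3 siRNA, against 11.53, 10.69 and 10.78 after control siRNA. It was lower in all 3 pairs, by more in the second array set (-0.93 and -1.01) than in the first (-0.56), and replicate 1 after MATR3 siRNA lay above control replicates 2 and 3. The mean difference was -0.83 (SE 0.0947, limma adjusted p = 0.0222, array-set model), or 56.1% of the control signal. The regions before the start sites of both genes are shown, from RefSeq on GRCh38.p14, which had an entry for 33 of the 47 members. VIM and ANXA2 were taken as the markers called in the array-set model, with opposite signs. Where a gene had several RefSeq entries, the most upstream start was used, here and for the regions below. The 250 bases before the start are at chr10:17227991-17228240 on the plus strand and chr15:60397987-60398236 on the minus strand.
VIM: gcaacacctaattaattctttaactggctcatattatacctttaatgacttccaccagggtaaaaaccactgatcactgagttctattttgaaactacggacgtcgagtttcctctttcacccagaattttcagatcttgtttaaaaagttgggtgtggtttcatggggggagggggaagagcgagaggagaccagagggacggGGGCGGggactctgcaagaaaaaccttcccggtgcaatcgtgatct
ANXA2: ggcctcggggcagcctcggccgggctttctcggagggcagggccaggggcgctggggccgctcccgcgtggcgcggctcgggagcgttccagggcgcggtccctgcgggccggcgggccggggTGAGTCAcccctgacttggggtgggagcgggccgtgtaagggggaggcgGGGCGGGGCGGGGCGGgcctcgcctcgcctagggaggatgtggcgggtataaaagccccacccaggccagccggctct
Capitals mark matches on either strand to the GC box GGGCGG, the SMAD box CAGAC, the AP-1 element TGANTCA, the TEAD element GGAATG, bound by the partners of YAP1 and WWTR1, and the Snail family E-box CAGGTG. VIM held 1 GC box. ANXA2 held 3 GC boxes, each sharing 1 base with the next, and 1 AP-1 element. Of 34943 windows of the same length before RefSeq starts, 42.5% held a GC box, 38% a SMAD box, 6.59% an AP-1 element, 11.9% a TEAD element and 17.5% the E-box. These matches are a description of the letters.

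The other state markers did not pass. LGALS1, the secreted lectin galectin-1, measured 11.96, 10.59 and 10.70 (log2) after MATR3 siRNA, against 12.06, 11.10 and 11.09 after control siRNA. It was lower in each pair, at -0.10 in the first array set and -0.51 and -0.39 in the second, and the groups overlapped (mean -0.33, limma adjusted p = 0.0939, array-set model). S100A6, a calcium-binding protein, differed by -0.13 ± 0.09, THY1, a surface glycoprotein of neurons and fibroblasts, by -0.05 ± 0.18 and CD44, the hyaluronan receptor, by 0.01 ± 0.05 (log2, SD, n = 3 pairs). Means of S100A6 and CD44 lay under the highest background probe set in both groups. S100A10, the partner of ANXA2, and ANXA1, another annexin, were below the filter, with group means between 4.16 and 4.79. A second cluster of CD44, also below the filter, measured 3.89, 4.16 and 4.11 (log2) after MATR3 siRNA, against 3.81, 3.24 and 3.29 after control siRNA. The groups did not overlap there, at signals under the highest background probe set, and in the cluster with the higher mean they did.

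**Figure D2:**
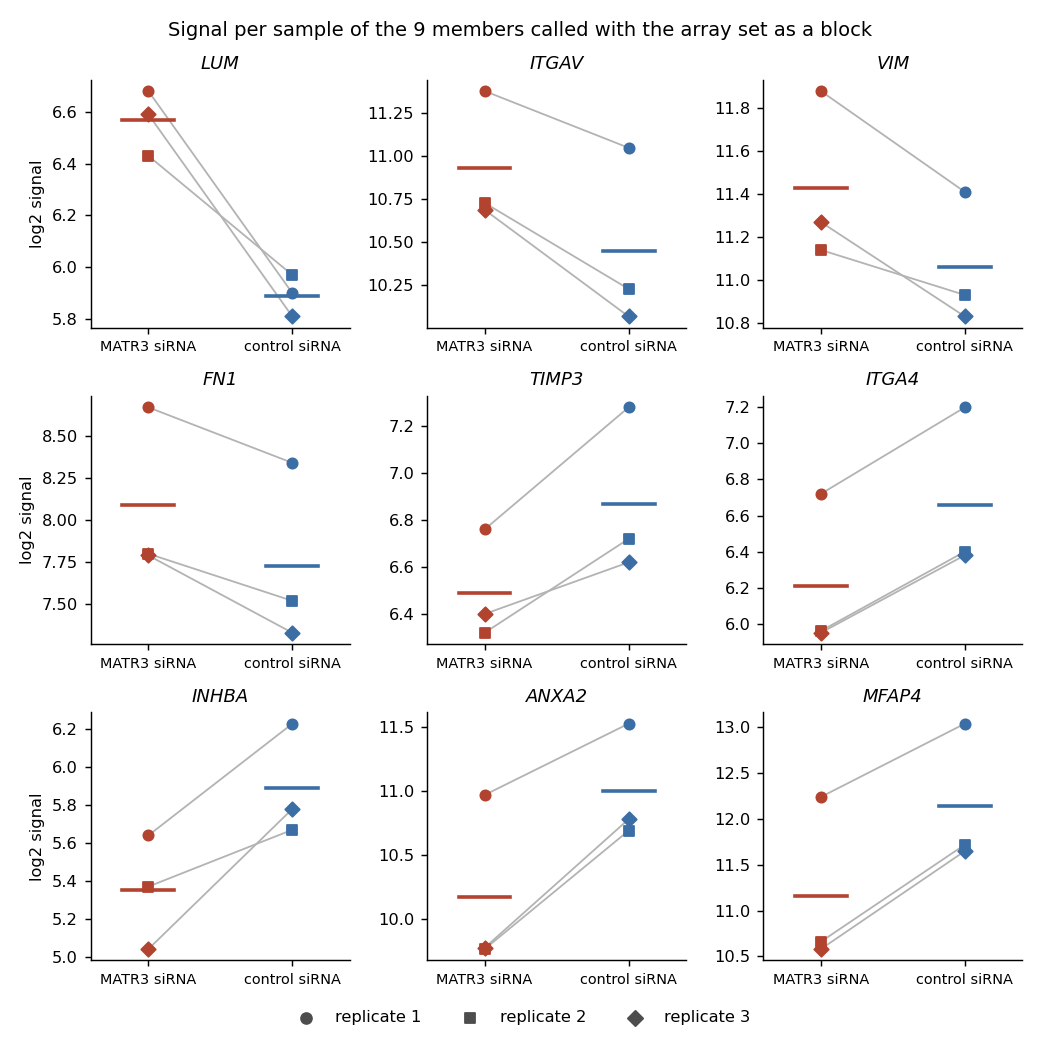
Log2 signal of the 9 called genes in each sample, with lines joining samples of the same replicate number and horizontal bars at the group means (n = 3 each, y axes differ and do not start at 0). Replicate 1 (circles) is the highest sample of each group in all panels but the control group of LUM, and the groups do not overlap in LUM and INHBA.

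Matrix proteins held 2 genes that rose, 1 that fell and 6 tested genes that did not pass. MFAP4, a glycoprotein of elastic microfibrils, fell most among all members, to log2 signals of 12.24, 10.66 and 10.58 after MATR3 siRNA, against 13.04, 11.72 and 11.65 after control siRNA. All 3 pairs were lower, at -0.80, -1.06 and -1.07, and the groups overlapped because replicate 1 after MATR3 siRNA exceeded control replicates 2 and 3. The mean difference was -0.98 (SE 0.0739, limma adjusted p = 0.0199, array-set model), or 50.8% of the control signal. FN1, fibronectin, measured 8.67, 7.80 and 7.79 (log2) after MATR3 siRNA, against 8.34, 7.52 and 7.33 after control siRNA. The MATR3 siRNA sample was higher in each pair, by 0.33, 0.28 and 0.46, and the groups overlapped (mean 0.36, SE 0.0654, limma adjusted p = 0.0485, array-set model). LUM, the proteoglycan lumican that binds collagen fibrils, measured 6.68, 6.43 and 6.59 (log2) after MATR3 siRNA, against 5.90, 5.97 and 5.81 after control siRNA. Its groups did not overlap, which held for 2 of the 35 tested members, LUM and INHBA, and for 2.24% of all clusters, and the first array set did not stand apart in it. Its mean difference was 0.67 (SE 0.0777, limma adjusted p = 0.0224, array-set model), at signals under the highest background probe set in both groups.

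DCN, decorin, a proteoglycan related to lumican, was below the filter, with log2 signals of 4.93, 4.95 and 4.83 after MATR3 siRNA, against 4.70, 4.45 and 4.58 after control siRNA. The groups did not overlap. A second DCN cluster ran the other way, at -0.25 ± 0.13 against 0.33 ± 0.15 for the first (log2, SD, n = 3 pairs). With no filter on low values, limma gave the first cluster adjusted p = 0.127 in the array-set model.

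SPARC, a secreted protein that binds collagen and calcium, measured 10.84, 10.41 and 10.48 (log2) after MATR3 siRNA, against 10.88, 10.70 and 10.75 after control siRNA. It differed by -0.04 in the first array set and by -0.29 and -0.27 in the second, and did not pass (limma adjusted p = 0.160). COL1A2, a chain of fibrillar type I collagen, split the same way with the other sign, at -0.05, 0.51 and 0.48, and its partner chain COL1A1 gave -0.12, 0.35 and 0.21. Both collagens had group means between 4.89 and 5.20, under the highest background probe set. COL6A1, a chain of microfibrillar type VI collagen, differed by -0.10 ± 0.12, also at means under that probe set. The cluster of COL3A1, another fibrillar collagen, and MIR3606 differed by 0.01 ± 0.10, and TGFBI, a matrix protein induced by TGF-beta, was below the filter at 4.47 after MATR3 siRNA and 4.48 after control siRNA.

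COL4A1 and COL4A2, the paired chains of basement membrane type IV collagen, showed the smallest pair-to-pair spread among the matrix proteins. COL4A1 measured 6.51, 5.97 and 5.94 (log2) after MATR3 siRNA, against 6.51, 5.99 and 5.97 after control siRNA. COL4A2 had 6.77, 6.16 and 6.15 after MATR3 siRNA, against 6.73, 6.20 and 6.13 after control siRNA. The mean log2 differences were -0.02 ± 0.02 and 0.01 ± 0.04 (SD, n = 3 pairs), with limma adjusted p = 0.859 and 0.951, and both lay under the highest background probe set. The genes are read in opposite directions from start sites that face away from each other on chromosome 13. The 126 bases between the RefSeq starts, at chr13:110307158-110307283 on GRCh38.p14, plus strand, are shown because this pair shares them, and capitals mark the 1 GC box.
COL4A1 and COL4A2: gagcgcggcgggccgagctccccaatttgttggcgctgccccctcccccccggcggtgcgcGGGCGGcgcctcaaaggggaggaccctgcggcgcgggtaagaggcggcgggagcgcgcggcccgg
Among the 126 bases next to 34943 RefSeq starts, 34.5% held a GC box.

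Of the matrix enzymes and their inhibitors, TIMP3 fell and 3 tested genes did not pass. TIMP3, which inhibits metalloproteinases and binds the matrix, measured 6.76, 6.32 and 6.40 (log2) after MATR3 siRNA, against 7.28, 6.72 and 6.62 after control siRNA. All 3 pairs were lower, at -0.52, -0.40 and -0.22, and the groups overlapped (mean -0.38, SE 0.069, limma adjusted p = 0.0476, array-set model). Its means lay under the highest background probe set in both groups. MMP2, the gelatinase that cleaves type IV collagen, measured 13.91, 12.86 and 13.03 (log2) after MATR3 siRNA, against 14.06, 13.38 and 13.24 after control siRNA. It was lower in each pair, at -0.15, -0.52 and -0.21, and did not pass (mean -0.29, limma adjusted p = 0.107). LOX, lysyl oxidase, which crosslinks collagen, had 8.20, 7.21 and 7.19 after MATR3 siRNA, against 7.93, 7.09 and 7.04 after control siRNA. It was higher in each pair with a mean of 0.18 ± 0.08 (log2, SD, n = 3 pairs; limma adjusted p = 0.131). TIMP1, a further metalloproteinase inhibitor, differed by 0.20 ± 0.13, and the cluster of TIMP2, the inhibitor that also takes part in MMP2 activation, and CEP295NL by 0.09 ± 0.11. Means of TIMP1 lay under the highest background probe set in both groups.

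In the array-set model 1 alpha integrin rose and 1 fell, beside a beta subunit that did not pass. ITGAV, the alpha V subunit of receptors for fibronectin and vitronectin, measured 11.38, 10.73 and 10.69 (log2) after MATR3 siRNA, against 11.05, 10.23 and 10.07 after control siRNA. It was higher in each pair, by 0.33, 0.50 and 0.62, and the groups overlapped (mean 0.48, SE 0.0755, limma adjusted p = 0.0372, array-set model). ITGA4, the alpha 4 subunit, whose pairs bind VCAM1 and fibronectin, had 6.72, 5.96 and 5.95 after MATR3 siRNA, against 7.20, 6.40 and 6.38 after control siRNA. It was lower in each pair by nearly the same amount, at -0.48, -0.44 and -0.43, and the groups overlapped through the gap between array sets. Its mean difference was -0.45 (SE 0.0478, limma adjusted p = 0.0199, array-set model), at means under the highest background probe set in both groups. ITGB1, the beta 1 subunit that pairs with both, measured 14.38, 13.61 and 13.61 (log2) after MATR3 siRNA, against 14.53, 13.63 and 13.66 after control siRNA, a mean difference of -0.07 ± 0.07 (SD, n = 3 pairs). The 250 bases before the RefSeq start of ITGAV, the integrin that rose, are at chr2:186589806-186590055 on the plus strand.
ITGAV: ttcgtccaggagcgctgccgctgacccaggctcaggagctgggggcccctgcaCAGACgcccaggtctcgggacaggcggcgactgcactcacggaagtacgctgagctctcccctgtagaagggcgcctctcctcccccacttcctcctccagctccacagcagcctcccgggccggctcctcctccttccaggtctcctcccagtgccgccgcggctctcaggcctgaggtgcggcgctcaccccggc
Capitals mark the 1 SMAD box found.

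In the TGF-beta family INHBA fell and the other 8 tested genes did not pass. Among ligands, INHBA, the beta A subunit of activin, measured 5.64, 5.37 and 5.04 (log2) after MATR3 siRNA, against 6.23, 5.67 and 5.78 after control siRNA. The groups did not overlap. The mean difference was -0.54 (SE 0.0959, limma adjusted p = 0.0459, array-set model), or 68.6% of the control signal, at means under the highest background probe set. TGFB1, the ligand that names the pathway, differed by -0.07 ± 0.21. TGFB2, a related ligand, was below the filter with 4.88, 4.83 and 4.88 after MATR3 siRNA, against 4.79, 4.63 and 4.53 after control siRNA. Its groups did not overlap, and with no filter limma gave 0.21 and adjusted p = 0.233 in the array-set model. The 250 bases before the RefSeq start of INHBA, the family member that fell, lie at chr7:41703091-41703340 on the minus strand and held 0 matches to the motifs searched.
INHBA: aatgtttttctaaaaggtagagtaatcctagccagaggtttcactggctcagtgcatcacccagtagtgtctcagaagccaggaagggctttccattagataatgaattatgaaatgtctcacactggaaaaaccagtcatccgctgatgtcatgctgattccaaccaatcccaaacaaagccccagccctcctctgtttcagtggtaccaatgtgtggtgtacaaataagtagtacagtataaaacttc

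None of the receptors and SMADs passed. TGFBR1, the type I receptor kinase, measured 10.37, 9.51 and 9.60 (log2) after MATR3 siRNA, against 10.46, 9.50 and 9.45 after control siRNA, and TGFBR2, the type II receptor, differed by -0.07 ± 0.05. Means of TGFBR2 lay under the highest background probe set in both groups. SMAD3, which carries the TGF-beta signal to the nucleus, differed by 0.21 ± 0.18, and SMAD7, an inhibitory SMAD induced by the pathway, by -0.07 ± 0.09 (log2, SD, n = 3 pairs). The ID genes, helix-loop-helix inhibitors that respond to BMP and TGF-beta signals, did not pass and differed in sign. ID1 measured 11.35, 9.20 and 9.71 (log2) after MATR3 siRNA, against 11.41, 10.35 and 10.09 after control siRNA. Its pair differences ran from -0.06 to -1.15, the widest spread among the members (mean -0.53 ± 0.56, limma adjusted p = 0.183, array-set model). ID2 differed by 0.17 ± 0.10 and ID3 by 0.31 ± 0.30, with 0.66 in the replicate 1 pair and 0.12 and 0.16 in the others.

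Several members had pair differences of unlike size in the first and second array set. The first set holds 1 pair, so this cannot be told apart from the spread between pairs. The replicate 1 pair had a smaller difference than the mean of the other pairs in 21 of the 35 tested members and a larger one in 14, and the sign was opposite in 12. The same counts were not made over all clusters, so they cannot be read as particular to the members. The 9 called genes, which were called on these same samples, kept their sign in both sets. A test of the treatment by array set interaction, added after the data were examined, called 0 of the members and 0 of 15209 clusters in limma, with 6 members and 1319 clusters at an unadjusted p under 0.05. The smallest adjusted p among members was 0.404, for COL1A2, whose difference in the first set minus that in the second was -0.54 on the log2 scale.

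**Figure D3:**
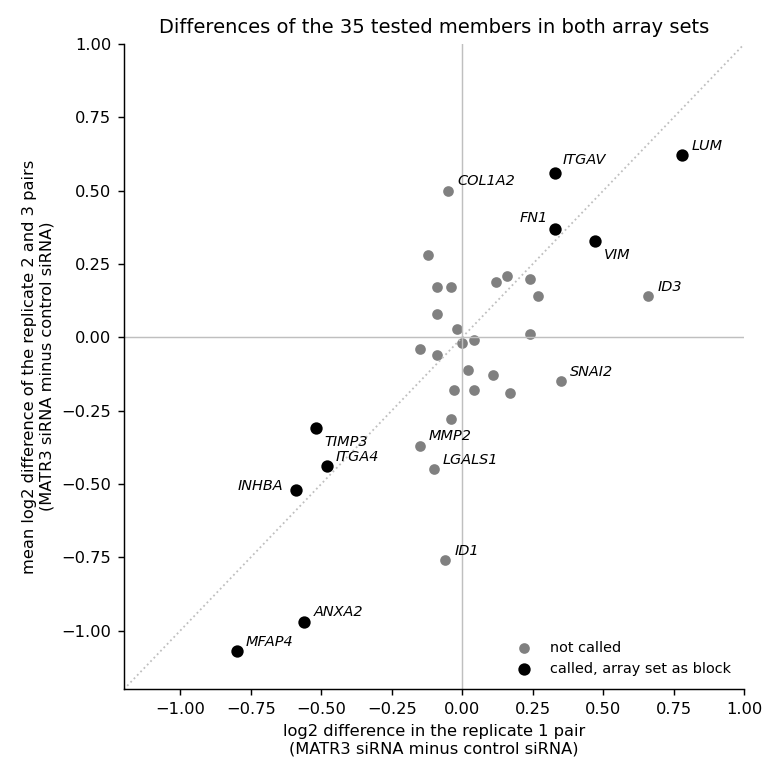
Log2 difference, MATR3 siRNA minus control siRNA, in the replicate 1 pair (x) against the mean of the replicate 2 and 3 pairs (y) for the 35 tested genes, with equal values on the dotted line. The 9 called genes (black) lie in the lower left and upper right quadrants, while ID1 and COL1A2 differ in the second set and lie near 0 in the first.

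The exon-level table, which summarises the same arrays and is no independent measurement, held 1068 kept probe sets of 45 member genes, each an exon or junction with 1 symbol. Tested on their log2 signal in the array-set model, 0 of these and 0 of all 456623 kept probe sets (0%) passed in limma, so the counts that follow describe direction and size. ANXA2 was lower in 30 of 32 probe sets with a median log2 difference of -1.13, and 21 were at least 2-fold lower, against 2.59% of all 456623 kept probe sets. MFAP4 was lower in 13 of 15 (median -1.17), ITGA4 in 39 of 48 (median -0.64) and INHBA in 5 of 6 (median -0.32). Most probe sets of the genes that rose were on the other side of 0. FN1 was higher in 91 of 102 probe sets (median 0.44), ITGAV in 63 of 70 (median 0.43), VIM in 22 of 32 (median 0.25) and LUM in 6 of 7 (median 0.83), where 51.2% of all kept probe sets were higher. TIMP3 was lower in 10 of 11 with a median of -0.96, and the mean of these probe sets was -0.88, more than 1.5 times the -0.38 of its cluster. Of genes that did not pass, MMP2 was lower in 29 of 30 probe sets (median -0.44), SPARC in 22 of 26 (median -0.33), ITGB1 in 44 of 56 (median -0.15) and ID1 in 4 of 4 (median -0.62). CD44 was higher in 15 of 18 kept probe sets with a median of 0.33, against 0.01 for its cluster, and 46 of its 64 probe sets were below the filter. Groups did not overlap in 16 of the 32 ANXA2 probe sets, 10 of 11 for TIMP3, 9 of 15 for MFAP4, 11 of 32 for VIM, 3 of 7 for LUM, 2 of 6 for INHBA, 13 of 70 for ITGAV, 17 of 102 for FN1 and 7 of 48 for ITGA4, against 8.44% of all kept probe sets. These genes were called on the same arrays, so the counts are a description. Some tested genes that were not called also exceeded that share, such as MMP2 (6 of 30) and SMAD3 (3 of 23). Others lay below it, such as SPARC (1 of 26).

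**Figure D4:**
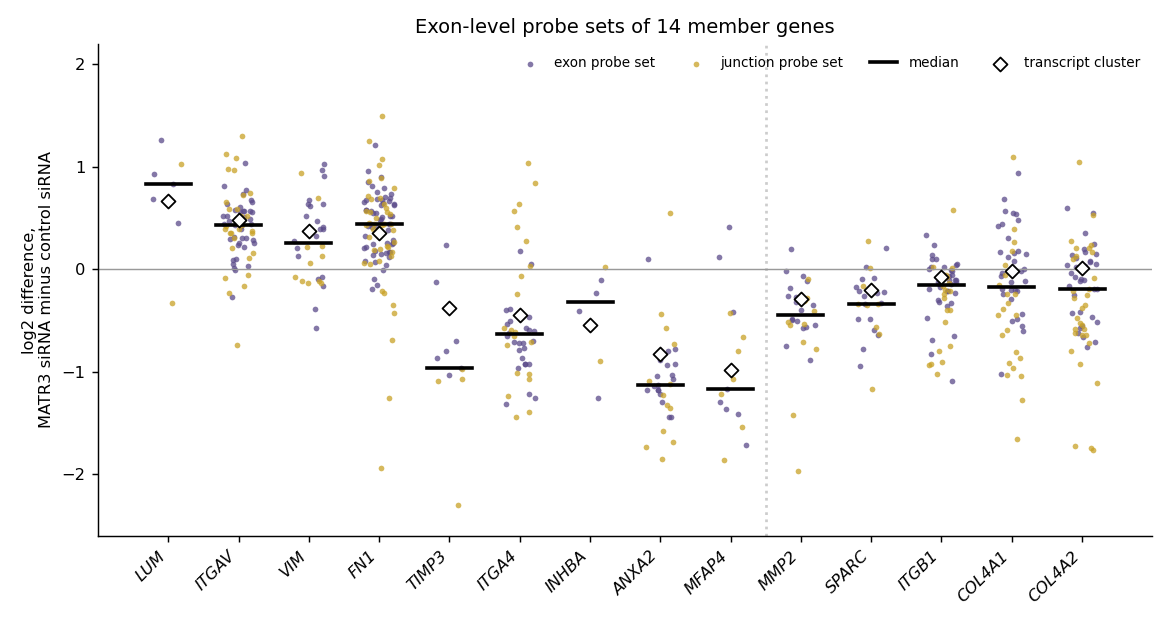
Log2 difference, MATR3 siRNA minus control siRNA, of each kept exon (purple) and junction (yellow) probe set in the 9 called genes (left of the dotted line) and 5 that were not called, with the median as a bar and the transcript cluster as a diamond. Most probe sets of a called gene lie on the side of its cluster, with medians from -1.17 for MFAP4 to 0.83 for LUM.

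The title of the study names splicing pattern, so the signal of each probe set was also set against the mean over its gene in the same sample, the splicing index. In the array-set model limma called 0 of 1058 probe sets in 41 member genes and 0 of 360570 in all (0%), with 105 member probe sets (9.92%) and 9.28% of all at an unadjusted p under 0.05. The 2 member probe sets with the smallest p were in genes that fell. A junction of ITGA4 (JUC02008593.hg.1) measured 6.97, 7.89 and 7.67 (log2) after MATR3 siRNA, against 6.54, 6.72 and 6.14 after control siRNA, a splicing index difference of 1.58 (limma adjusted p = 0.536). An exon probe set of TIMP3 (PSR22004651.hg.1) had 6.80, 6.47 and 6.58 after MATR3 siRNA, against 6.45, 6.28 and 6.39 after control siRNA, a splicing index difference of 1.12 (limma adjusted p = 0.536). Most other kept probe sets of both genes were lower, and neither probe set passed. COL4A1 had 13 of 56 probe sets and COL4A2 9 of 66 at an unadjusted p under 0.05, with none called.

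Other genes of the same processes, listed from background knowledge, were read in the array-set model, in which 2.08% of all clusters rose and 1.41% fell. The lists were written with earlier results of these data known, so their counts are a description and no independent test. Of 44 tested genes of matrix and adhesion outside the members, 5 fell, 0 rose and 39 did not pass, with a median of -0.05 against 0.04 for all clusters. The largest falls were ITGA9, a further alpha integrin that pairs with beta 1, at -0.47 ± 0.13, P4HA1, a collagen prolyl hydroxylase subunit, at -0.45 ± 0.03, CALD1, the actin-binding caldesmon, at -0.41 ± 0.07, and VCL, vinculin of focal adhesions, at -0.39 ± 0.10 (log2, SD, n = 3 pairs). Of 40 tested TGF-beta and BMP pathway genes, 1 fell and 0 rose, with a median of 0.01. That gene was ENG, endoglin, a co-receptor for TGF-beta and BMP ligands, with log2 signals of 10.61, 10.21 and 10.27 after MATR3 siRNA, against 11.18, 11.07 and 10.82 after control siRNA. Its groups did not overlap, and its mean difference was -0.66 ± 0.17 (limma adjusted p = 0.0246). Of 26 tested mesenchymal regulators outside the members, ETV1, an ETS factor, rose by 0.40 ± 0.03 and STAT3, a cytokine signal transducer, fell by 0.31 ± 0.06, and 24 did not pass, with a median of 0.02. Of 19 tested adrenergic regulators, 3 rose and 0 fell, with a median of 0.17. They were SIX3 at 0.55 ± 0.21, ISL1 at 0.54 ± 0.19 and SATB1 at 0.48 ± 0.05, all of them transcription factors or chromatin organisers. DBH, the noradrenaline-synthesis enzyme among the noradrenergic markers, fell, with mean log2 signals of 16.20 after MATR3 siRNA and 17.04 after control siRNA (-0.84, limma adjusted p = 0.0199). None of the genes in these lists passed with no block.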

How the data were processed

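Total RNA (100 ng input) of 6 SH-SY5Y samples was hybridised to Affymetrix Human Transcriptome Array 2.0, and each array is deposited at gene level and at exon level. The deposited values are log2 signals, made with Affymetrix Expression Console and RMA, per the submitters' processing notes. Versions, order of steps and genome build are not given in the sources used here. Nothing was rescaled. Arrays carry no read depth, and their number limits precision.

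Symbols came from the platform annotation, updated by gene identifier or synonym. Of 67528 clusters, 23781 carried 1 symbol. Tests used R 4.3.3, limma 3.58.1 (lmFit, eBayes, two-sided, Benjamini-Hochberg at 0.05) with the R package data.table, on clusters with 1 symbol and a mean no lower than the median over clusters. The splicing index needed at least 5 kept probe sets per gene. The calculations were tested on simulated data. Figures used Python 3.11.15 and matplotlib 3.10.9.

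Within-group deviations of same-numbered samples correlated at 0.752, 0.426 and 0.613, all above 0.1, so the numbers of the labels were taken to pair the samples, and differences are means ± SD of 3 pairs. Across replicates 2 and 3 a correlation between different numbers reached 0.627, so the numbers set replicate 1 apart but not 2 from 3. For replicates 2 and 3 the pairing rests on the labels alone, as do the SDs and pair signs that use it. Members, lists and the array set term were chosen with earlier results of these data known. Values per sample are given for called members, tested members whose groups do not overlap and the 2 with the highest mean signal in each role group, and further genes are up to 4 called per list. A few others were added after their values were seen. Alternatives were the block, filter, features tested, scaling, array weights and leaving out each sample.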

Additional observations from a re-analysis of the deposited data

How the results depend on the processing

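With no block 0 members were called, and 0 under each alternative except the array set as a block (9) and array weights (13). Array weights without a block also passed 1761 of all 15209 clusters, so the 13 members stand beside many other genes. With the array set as a block 9 were called. That member count was 0 with the replicate block, 0 with no block and 0 over all clusters with or without a symbol. It was 4 with no filter on low values, where 124 of 23781 clusters were called. With the filter at the 75th percentile it was 5 of the 21 members still tested, where 973 of 9533 clusters were called. ITGA4, INHBA, LUM and TIMP3 were not tested at that filter. It was 7 after quantile normalization or median centring, where 385 and 361 of 15209 clusters were called. With array weights it was 16, where 3275 of 15209 clusters were called. Leaving out 1 sample gave a lowest and highest count of 0 in both models. The splicing index called 0 member probe sets under every setting run, the replicate block and leaving out each sample included, with 46 to 210 at an unadjusted p under 0.05. The numbered pairing as a replicate block called 8 of 15209 clusters (0.0526%), none a member, and the smallest adjusted p among members was 0.054, for MFAP4. The 9 called genes kept their sign in every setting run, replicate 1 pair alone included. The choice of block and of clusters tested leaves the mean difference unchanged. The genes were also called on these same samples, so the kept sign is a description and no test. Why fewer members passed in some settings was not tested.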
